A study of Homo sapiens with 21 samples.

Results

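Expression of 9 erythroid and megakaryocyte genes was followed in OCI-AML5, a human acute myeloid leukemia cell line. The genes were chosen by symbol after the version was removed from each gene identifier, and they are 9 of the 58174 identifiers in the files. They comprise the regulators GATA1, TAL1 and KLF1, the globins HBG1, HBG2 and HBB, the heme enzyme ALAS2, and the platelet genes PF4 and ITGA2B. Poly(A) RNA was sequenced from 21 libraries in 7 groups of 3. Control cells were kept in DMSO, the vehicle, for 72 h, or in 500 nM UM171, a small molecule agonist of hematopoietic stem cell self-renewal, for 6, 24, 48 or 72 h. Cells carrying a guide against EPCR (sgEPCR), the receptor encoded by PROCR, were kept for 24 h in DMSO or in UM171. The labels give the sgEPCR cells as EPCR null and also as EPCR knockdown, and the study describes them as independent clones. The labels name no guide for the control cells. The study's own text gives a lower dose of UM171 than the labels. The control DMSO group was collected at 72 h and the sgEPCR DMSO group at 24 h, so time in culture cannot be told apart from genotype between them, nor from UM171 in the control comparisons at 6, 24 and 48 h. Nothing in the labels says that the libraries of a group came from separate cultures, so p-values measure the spread between these libraries, which may be technical.

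GATA1 and TAL1 are transcription factors that act together on erythroid and megakaryocyte genes, in complexes that also hold LMO2 and LDB1. KLF1 drives adult globin and other red cell genes, and ALAS2 makes the first precursor of heme in red cell precursors. PF4 is a chemokine of platelet granules, and ITGA2B is the α subunit of the platelet fibrinogen receptor, whose partner is ITGB3. In the neutrophil and monocyte lineages these genes are mostly silent, with the exception of factors such as TAL1 that early progenitors share.

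Totals ranged from 24286668 to 51540166 counts per library, and 3 counts, used here as the detection floor, were 0.0582 to 0.1235 CPM (counts scaled to the library total). The floor accounts for counting error alone. The first sgEPCR DMSO library and the second sgEPCR UM171 library held 35.9% and 32.2% counts from mitochondrially encoded genes, against 7.73% to 13.5% in the other 19, and results that include them are also given without them. PROCR itself had a mean of 3.68 ± 0.534 TPM (a length-corrected share of all transcripts; SD, n = 3) in control DMSO and 48.5 ± 0.0115 TPM after 24 h of UM171, against 3.59 ± 1.15 and 7.19 ± 2.58 TPM in the corresponding sgEPCR groups. RNA levels do not show whether the EPCR protein was lost. In whole-culture RNA, fewer cells of a type and less RNA per cell cannot be told apart.

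Of the 9 genes, 7 were at or near 0 in all 7 groups and 2 were read in every library. HBG1, ALAS2 and PF4 had 0 counts in all 21 libraries. GATA1 had 1 count in the first UM171 48 h library and 0 in the other 20. HBB had 1 count in the first sgEPCR UM171 library and 0 in the other 20. HBG2 had 1 count in the third UM171 6 h library, 1 in each of the first and second UM171 48 h libraries, and 2 in the second sgEPCR UM171 library. KLF1 had 4 counts, 0.12 TPM, in the second UM171 72 h library, the single value of these 7 genes at or above the floor. KLF1 had 1 count in 4 further libraries and 0 in the other 16. In all, 136 of the 147 values of these 7 genes were 0, and they summed to 15 counts over all 21 libraries.

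**Figure D1:**
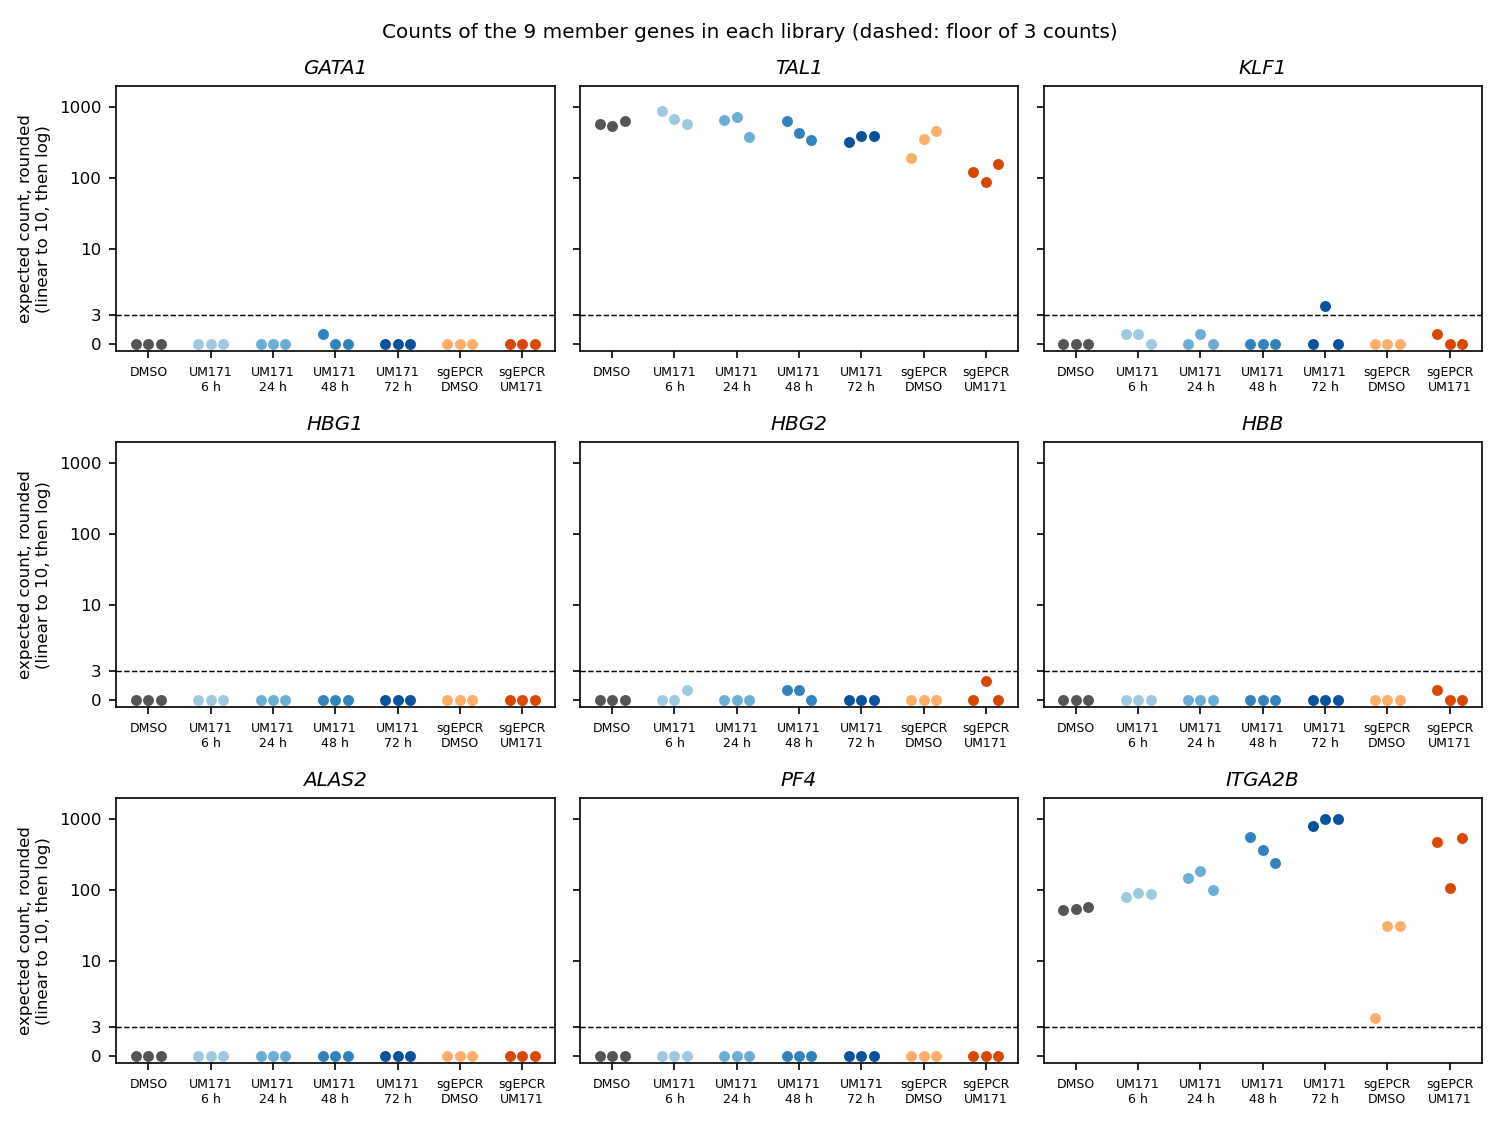
Rounded expected counts of the 9 genes (y axis, linear to 10 and logarithmic above) in each of 21 libraries, with 3 points per group and a dashed line at the floor of 3 counts. GATA1, KLF1, the 3 globins, ALAS2 and PF4 lie on or near 0 throughout, whereas TAL1 ranges from 88 to 897 counts and ITGA2B from 4 to 1021.

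The level that a count of 0 allows depends on gene length and depth. A value of 3 counts corresponded to 0.0698 to 0.148 TPM for GATA1, 0.057 to 0.121 for KLF1, 0.189 to 0.402 for HBB, 0.173 to 0.369 for HBG1, 0.0567 to 0.243 for HBG2, 0.0803 to 0.171 for ALAS2 and 0.168 to 0.357 for PF4. The lowest HBG2 value, 0.0567, came from the first UM171 48 h library, which held 1 count. In libraries with 0 HBG2 counts the lowest was 0.114. RNA of these genes below such levels was not detectable at this depth. HBG1 and HBG2 encode γ-globin from nearly identical transcripts (99.1% identity over 587 and 586 bases), and RSEM divides reads between them, so a split of their counts is uncertain. Their sum was at most 2 counts in a library and 5 counts over all 21. None of the 7 genes passed the filter on low counts and none was tested in the fits across all genes. Two-sided exact permutation tests on log2(TPM + 0.1) could be computed in 12 of 49 gene and group pairs, since all values were 0 in the other 37. The lowest exact p was 0.4, in a design of 3 libraries against 3 that cannot go below 0.1.

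KLF1 (ENSG00000105610) lies on chromosome 19 from 12884422 to 12887201 and ALAS2 (ENSG00000158578) on chromosome X from 55009055 to 55030977, both on the minus strand of GRCh38. ALAS2 overlaps APEX2, a gene of the opposite strand, at its 3′ end. Their RefSeq promoters (GRCh38.p14, 250 bases before to 50 bases after the start) are shown because both carry words that GATA factors can recognise, although neither gene was read above the floor except KLF1 in 1 library. Capitals mark AGATAA and its variant AGATAG, or TGATAA and its variant TGATAG, on either strand.
KLF1, chr19:12887152-12887451: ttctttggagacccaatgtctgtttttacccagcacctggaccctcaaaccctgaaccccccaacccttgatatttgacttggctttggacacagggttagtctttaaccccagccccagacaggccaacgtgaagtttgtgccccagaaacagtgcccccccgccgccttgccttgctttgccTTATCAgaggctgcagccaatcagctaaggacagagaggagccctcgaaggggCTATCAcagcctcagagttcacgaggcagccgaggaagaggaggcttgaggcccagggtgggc
ALAS2, chrX:55030928-55031227: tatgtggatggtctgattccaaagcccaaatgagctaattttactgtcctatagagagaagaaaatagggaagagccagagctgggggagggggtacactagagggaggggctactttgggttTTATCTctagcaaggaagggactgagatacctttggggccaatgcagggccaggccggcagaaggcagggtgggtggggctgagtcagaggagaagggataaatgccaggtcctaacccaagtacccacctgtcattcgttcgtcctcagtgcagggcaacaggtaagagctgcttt
KLF1 holds 2 such words, starting 66 and 13 bases before the start, and ALAS2 holds 1, starting at position -127 from it. The window of GATA1 holds none. Of 34943 RefSeq promoters of this length, 25% hold at least 1, so a match describes the letters and marks no binding site.

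ITGA2B (ENSG00000005961) was the member with the largest change. It lies on chromosome 17 from 44372180 to 44389649 on the minus strand, with no other annotated gene across it. Its promoter is shown with the same words in capitals.
ITGA2B, chr17:44389600-44389899: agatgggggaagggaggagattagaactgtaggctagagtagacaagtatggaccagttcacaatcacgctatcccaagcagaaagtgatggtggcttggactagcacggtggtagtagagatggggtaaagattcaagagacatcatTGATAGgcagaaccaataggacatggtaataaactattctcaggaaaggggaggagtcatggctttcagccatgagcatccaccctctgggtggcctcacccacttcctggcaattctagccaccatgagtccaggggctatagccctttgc
It holds 1 GATA word, starting 102 bases before the start, and 2 words CAGGAA or CCGGAA (either strand), the core that ETS factors such as FLI1 recognise, which 41.3% of RefSeq promoters hold.

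In control cells ITGA2B had 53, 54 and 58 counts in DMSO, which are 1.31, 0.97 and 1.54 TPM. After 6 h of UM171 its TPM values were 2.06, 2.74 and 2.36, and after 24 h they were 2.12, 2.79 and 2.93. After 48 h they were 8.33, 7.48 and 4.38, and after 72 h they were 16.82, 20.16 and 16.05. Every UM171 library was above every DMSO library, the 6 h and 24 h ranges overlapped, and the 72 h libraries stood above those of all other groups. The 72 h counts were 807, 1021 and 1001.

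On the log2 scale, relative to DMSO, ITGA2B was higher by 0.66 at 6 h (SE 0.17, adjusted p = 0.0036, edgeR), which is under the 2-fold minimum. Calls needed more than a 2-fold change together with an adjusted p (Benjamini-Hochberg) below 0.0001. ITGA2B rose by 1.21 at 24 h (SE 0.16, adjusted p = 3.9e-06), by 2.81 at 48 h (SE 0.14, adjusted p = 1.4e-11) and by 4.03 at 72 h (SE 0.14, adjusted p = 5.1e-14, 16.4-fold). These comparisons share the DMSO libraries. The step from 24 to 48 h was 1.61 (SE 0.12, adjusted p = 2.9e-08) and that from 48 to 72 h was 1.22 (SE 0.11, adjusted p = 5.2e-08), whereas that from 6 to 24 h was 0.55 (SE 0.15, adjusted p = 0.0037) and was not called. The 24 h call was lost with limma on log2(TPM + 1) (0.67, adjusted p = 0.0055), with limma on log2(TPM + 0.1) (0.99, adjusted p = 0.0017) and with all 21 libraries in one fit (1.22, adjusted p = 0.0043).

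Of the 9 genes, ITGA2B was the 1 called at 24, 48 and 72 h, and 0 were called at 6 h, by edgeR and by DESeq2, where both tested members had an unadjusted p under 0.05. Among all 16575 genes tested, 6.78% were called higher and 0.247% lower after 6 h of UM171. The shares after 24 h were 9.03% and 4.70%. They were 11.7% and 4.67% after 48 h. After 72 h 2486 genes (15%) were called higher and 5.80% lower, 20.8% in either direction. For the steps, 2.51% of all genes were called higher from 24 to 48 h and 2.59% from 48 to 72 h.

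TAL1 (ENSG00000162367) lies on chromosome 1 from 47216290 to 47232225 on the minus strand, overlapped by an antisense noncoding gene that had at most 1 count in a library. The more upstream of its RefSeq promoters is shown, again with GATA words in capitals.
TAL1, chr1:47232286-47232585: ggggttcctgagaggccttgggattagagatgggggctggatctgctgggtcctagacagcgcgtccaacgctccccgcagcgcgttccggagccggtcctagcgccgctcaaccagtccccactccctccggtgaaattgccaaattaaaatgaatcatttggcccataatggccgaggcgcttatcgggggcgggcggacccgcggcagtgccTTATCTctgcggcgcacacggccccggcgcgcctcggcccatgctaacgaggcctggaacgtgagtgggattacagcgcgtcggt
It holds 1 GATA word, starting 35 bases before the start, and 2 of the ETS words. A second, more downstream window holds neither. The words in capitals are present before both members that were read and before KLF1 and ALAS2, which were at or near 0.

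TAL1 was read at 5.35, 5.25 and 5.46 TPM in control DMSO. After 6 h of UM171 its TPM values were 7.62, 7.18 and 7.15, and after 24 h they were 4.90, 4.60 and 5.09. The 48 h libraries had 4.62, 4.43 and 3.71 TPM, and the 72 h libraries had 3.19, 3.83 and 3.33 TPM. All 6 h libraries were above, and all later UM171 libraries below, the DMSO libraries. On the log2 scale TAL1 was 0.27 higher at 6 h (SE 0.06, adjusted p = 0.0009, edgeR) and differed from DMSO by -0.20 at 24 h (SE 0.06, adjusted p = 0.0064), -0.32 at 48 h (SE 0.06, adjusted p = 0.00019) and -0.74 at 72 h (SE 0.06, adjusted p = 8.5e-09). None reached 2-fold, so none was called. At an adjusted p under 0.05 with no minimum fold, TAL1 and ITGA2B passed at all 4 times, as did 62.1% of all tested genes after 6 h and 69.7% after 24 h. The share was 72.1% after 48 h and 75.6% after 72 h. From 6 to 72 h TAL1 fell by 1.01 (SE 0.06, adjusted p = 2e-10), just past 2-fold, beside 4.80% of all genes called lower, and of the 3 steps between neighbouring times that from 24 to 48 h did not pass an adjusted p of 0.05 (-0.11, SE 0.06, adjusted p = 0.15). With total count scaling in place of TMM the median of all genes at 6 h moves from 0.02 to 0.20 on the log2 scale, so the size of the 6 h difference is relative to that choice.

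**Figure D2:**
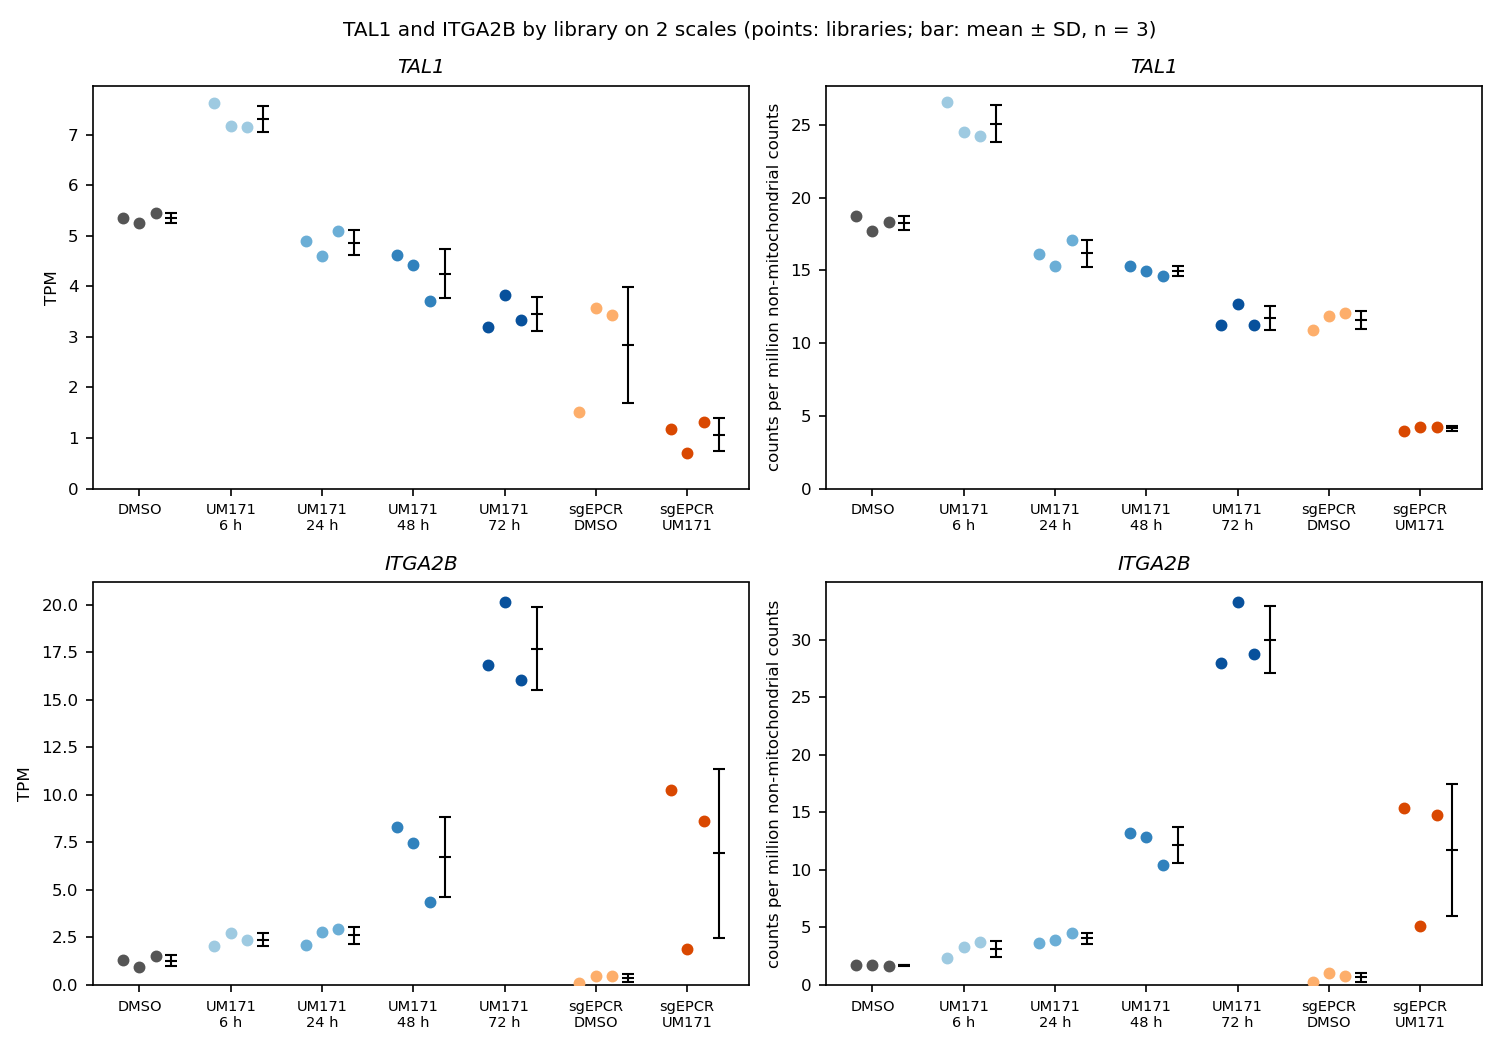
TAL1 (top) and ITGA2B (bottom) in each library as TPM (left) and as CPM over counts outside the mitochondrial genome (right), with the mean ± SD of 3 libraries as bars. TAL1 lies highest at 6 h and lowest in sgEPCR cells under UM171, and ITGA2B is highest at 72 h. The wide TPM spread of TAL1 in both sgEPCR groups narrows on the right, whereas that of ITGA2B under UM171 remains.

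In sgEPCR cells the 2 genes moved in opposite directions within 24 h. TAL1 had 1.52, 3.58 and 3.44 TPM in sgEPCR DMSO and 1.17, 0.70 and 1.32 TPM in sgEPCR UM171. The lowest value of each group came from the library rich in mitochondrial counts. In CPM over counts outside the mitochondrial genome, TAL1 was at 10.9, 11.8 and 12.1 in sgEPCR DMSO and at 3.96, 4.24 and 4.24 in sgEPCR UM171, with no overlap on either scale. TAL1 fell by 1.64 on the log2 scale (SE 0.09, adjusted p = 1.2e-07, edgeR), to 0.32 of its DMSO level. The call was lost with limma on log2(TPM + 1) (-0.86, adjusted p = 0.023), with limma on log2(TPM + 0.1) (-1.29, adjusted p = 0.021) and with total count scaling (-1.48, adjusted p = 0.00011). It was also lost with a block for the replicate number in the fit (replicate block). Without the 2 libraries rich in mitochondrial counts, TAL1 fell by 1.69 (SE 0.08, adjusted p = 3.1e-10).

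ITGA2B had 4, 31 and 31 counts in sgEPCR DMSO (0.13, 0.48 and 0.46 TPM) and 482, 107 and 553 counts in sgEPCR UM171 (10.23, 1.89 and 8.64 TPM). The groups did not overlap, and the lowest library of each was again the one rich in mitochondrial counts, also in CPM over counts outside the mitochondrial genome, where the values were 0.223, 1.01 and 0.796 against 15.4, 5.15 and 14.7. ITGA2B rose by 3.87 (SE 0.44, adjusted p = 3.2e-05, edgeR). In 10 of 12 fits that left out 1 library the adjusted p was over 0.0001, and it reached 0.00035 without the third sgEPCR DMSO library, while it was called without the first sgEPCR DMSO or the second sgEPCR UM171 library. With those 2 libraries both removed, the rise was 3.92 (SE 0.15, adjusted p = 2e-11). The call was also lost with total count scaling (4.06, adjusted p = 0.00034) and with limma on log2(TPM + 0.1) (3.74, adjusted p = 0.00097) or log2(TPM + 1) (2.33, adjusted p = 0.0021). The replicate block lost it too. Both tested members were called, 1 in each direction. Of 15901 genes tested in these 12 libraries 6.99% were called higher and 3.33% lower, and 52.1% passed an adjusted p of 0.05. Of the same genes 978 were called higher and 146 lower with total count scaling, and 102 and 12 with the replicate block. With limma they were 258 and 12 on log2(TPM + 1), and 294 and 12 on log2(TPM + 0.1).

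The difference between the sgEPCR and control responses to 24 h of UM171 was tested as an interaction. For TAL1 it was -1.45 (SE 0.12, adjusted p = 5.4e-06, edgeR), since TAL1 differed by -0.19 in control cells in the same fit. For ITGA2B it was 2.65 (SE 0.59, adjusted p = 0.0038), which was not called. With DESeq2 that difference was called (2.70, adjusted p = 2.5e-05), as it was without the second sgEPCR UM171 library (2.96, adjusted p = 9.9e-05) and without both libraries rich in mitochondrial counts (2.71, adjusted p = 2.5e-08). For TAL1 the call was lost with total count scaling (adjusted p = 0.0029) and with limma on log2(TPM + 1) (adjusted p = 0.18) or log2(TPM + 0.1) (adjusted p = 0.16). It was also lost with the replicate block. Over all genes, 3.60% were called with a more positive and 4.17% with a more negative difference, and 45.0% passed an adjusted p of 0.05. More genes were called in the settings that called ITGA2B. With DESeq2 they were 1340 more positive and 1231 more negative of 15901. Without the second sgEPCR UM171 library they were 790 and 932 of 16294, and without both libraries 1518 and 1602 of 16360. Fewer genes were called in the settings that lost TAL1. With total count scaling they were 269 more positive and 155 more negative of 15901. With limma they were 28 and 1 on log2(TPM + 1), and 8 and 0 on log2(TPM + 0.1). With the replicate block they were 0 and 0.

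Between genotypes, TAL1 was lower in sgEPCR than in control cells by 0.54 in DMSO (log2 fold change -0.54, SE 0.08, adjusted p = 0.00052), which is under 2-fold. In UM171 the difference was -1.99 (SE 0.09, adjusted p = 1.6e-07), a call that limma did not make (adjusted p = 0.002 with a pseudocount of 1). The replicate block did not make it either, and there 0 of 15901 genes were called. ITGA2B differed by -1.14 in DMSO (SE 0.45, adjusted p = 0.075) and by 1.51 in UM171 (SE 0.38, adjusted p = 0.0083), and neither was called. Without the 2 libraries rich in mitochondrial counts, the latter was 1.86 (SE 0.11, adjusted p = 1.8e-09) and was called. In that fit 996 of 16360 genes were called higher and 619 lower. Over all genes 1.43% were called higher and 1.41% lower in sgEPCR cells in DMSO, and 2.67% and 1.79% in UM171. An adjusted p of 0.05 was passed by 33.7% in DMSO and 43.0% in UM171. In DMSO edgeR and DESeq2 called 0 members, although both had an unadjusted p under 0.05. The DMSO comparison carries the 24 h against 72 h difference described above.

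**Figure D3:**
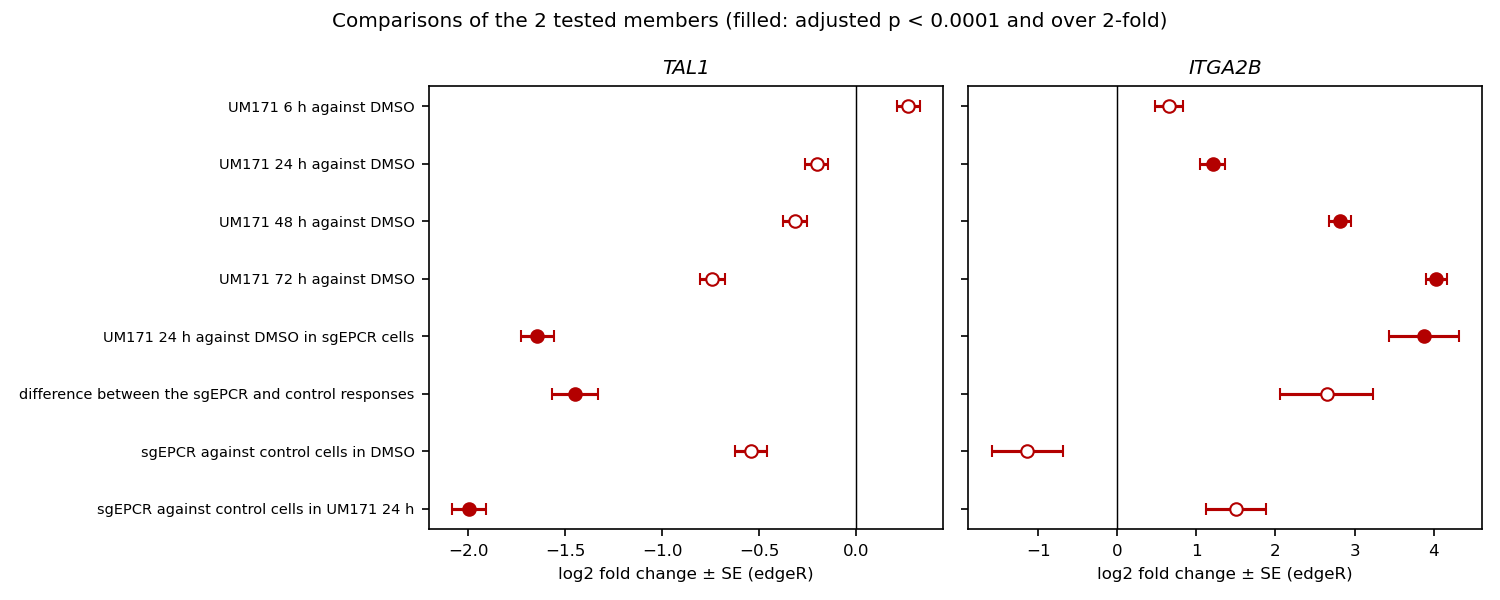
Log2 fold changes with standard errors (x axis, edgeR) of TAL1 and ITGA2B in 8 comparisons (y axis); filled points passed both limits. ITGA2B runs from 0.66 at 6 h to 4.03 at 72 h, and TAL1 from 0.27 at 6 h to -0.74 at 72 h and -1.64 in sgEPCR cells.

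Ordered by mean TPM over the 7 groups, ITGA2B was highest in UM171 72 h (17.7 ± 2.19), followed by sgEPCR UM171 (6.92 ± 4.43), UM171 48 h (6.73 ± 2.08), UM171 24 h (2.61 ± 0.433), UM171 6 h (2.39 ± 0.341), DMSO (1.27 ± 0.287) and sgEPCR DMSO (0.357 ± 0.197; SD, n = 3 each). Neighbouring ranges overlapped between sgEPCR UM171 and UM171 48 h and between UM171 24 h and 6 h. TAL1 was highest in UM171 6 h (7.32 ± 0.263), followed by DMSO (5.35 ± 0.105), UM171 24 h (4.86 ± 0.247), 48 h (4.25 ± 0.480) and 72 h (3.45 ± 0.337), sgEPCR DMSO (2.85 ± 1.15) and sgEPCR UM171 (1.06 ± 0.324). From UM171 24 h down to sgEPCR DMSO each range overlapped with the next. The other 7 genes cannot be ordered.

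Over the 15 control libraries the genes whose log2 CPM was most like that of ITGA2B were ITGAM, the α subunit of a leukocyte integrin (Pearson r = 0.994), LEPR, the leptin receptor (0.992), and PLSCR1, a phospholipid scramblase (0.992). For TAL1 they were NCR3LG1, a ligand of a natural killer cell receptor (0.974), CCN3, a secreted matrix protein (0.973), and BBS5, a subunit of a complex at the base of cilia (0.969). These values describe 15 points in 5 groups that share libraries and depth. Over all 21 libraries ITGAM was again the closest to ITGA2B (0.988), whereas none of the 3 genes closest to TAL1 recurred.

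The proteins that work with ITGA2B at the platelet surface were examined in a list of 30 megakaryocyte and platelet genes. ITGB3, the β subunit that pairs with ITGA2B, had 0.22, 0.23 and 0.08 TPM in DMSO and 2.37, 3.47 and 3.39 TPM at 72 h, with no overlap. It rose by 4.26 on the log2 scale (SE 0.30, adjusted p = 7.9e-10, edgeR). ITGA2, the α subunit of a collagen receptor, had 0.48, 0.51 and 0.66 TPM in DMSO and 10.17, 11.17 and 11.66 TPM at 72 h, a rise of 4.40 (SE 0.11, adjusted p = 1.6e-15). Its partner ITGB1, which most cells express, rose from 132 ± 3.96 to 316 ± 8.09 TPM (1.15, SE 0.04, adjusted p = 3.1e-14). In sgEPCR cells ITGB3 rose by 2.97 (adjusted p = 4.8e-05, a call lost in 11 of 24 alternatives) and ITGA2 by 4.47 (adjusted p = 2.2e-08) within 24 h.

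**Figure D4:**
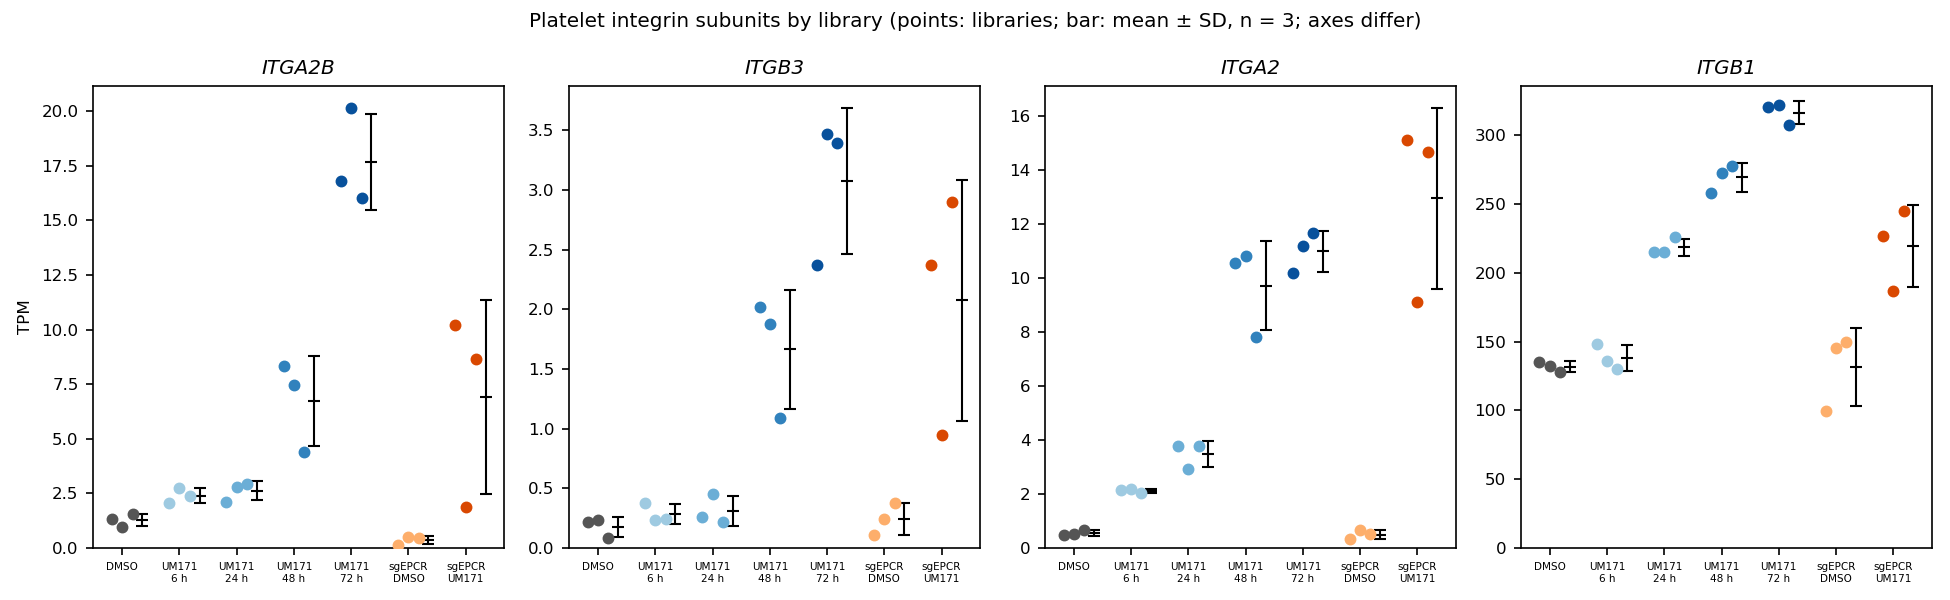
TPM of ITGA2B, ITGB3, ITGA2 and ITGB1 (y axes, different scales) in each library of the 7 groups, with the mean ± SD of 3 libraries as bars. The 72 h libraries lie above the DMSO libraries in all 4 panels, and the second sgEPCR UM171 library lies below its 2 replicates in each.

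Of the 30 megakaryocyte and platelet genes, 18 were tested in the time course, 6 rose and 0 fell at 72 h, beside 15% and 5.80% of all genes, and their median log2 fold change was 0.85 beside 0.02 over all genes. At 48 h 9 rose, beside 11.7% of all genes. Besides ITGB3, ITGA2 and ITGB1, the rises at 72 h were those of ANGPT1, a ligand of the TIE2 receptor (0.257 ± 0.0929 to 3.12 ± 0.523 TPM, 3.96 on the log2 scale), F13A1, a clotting factor subunit also made by monocytes (1.21 ± 0.191 to 10.8 ± 2.25 TPM, 3.18), and MMRN1, a platelet granule protein. By contrast GP5, GP9, PF4V1, SELP, TREML1 and MYL9 had under 3 counts in every library, among them 2 subunits of the platelet receptor for von Willebrand factor. For the difference between responses 2 of 14 tested genes were called, both more positive in sgEPCR cells, beside 3.60% of all genes. THBS1, an adhesive protein of platelets and many other cells, rose in sgEPCR cells from 0.423 ± 0.229 to 21.9 ± 7.91 TPM (difference 5.08, SE 0.20, adjusted p = 7.1e-08), and for BIN2, a membrane-shaping protein of blood cells, the difference was 1.05 (adjusted p = 2.5e-05), a call lost in 13 of 25 alternatives. Without the 2 libraries rich in mitochondrial counts, 17 were tested, 3 were called more positive and 1 more negative. Over all 16360 genes of that fit 1518 were called more positive and 1602 more negative. There THBS1 in sgEPCR against control cells differed by -2.45 in DMSO (SE 0.10, adjusted p = 1.4e-10, edgeR). In UM171 it differed by 2.61 (SE 0.05, adjusted p = 1.6e-13). The DMSO part carries the 24 h against 72 h difference.

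Among 19 partner and related regulators, 17 were tested, and at 72 h 3 rose and 2 fell, a share of rises near the 15% of all genes (median -0.18 beside 0.02 over all genes). GATA2, the GATA factor of stem and progenitor cells that GATA1 replaces in maturing erythroid cells, had 34.01, 33.49 and 33.76 TPM in DMSO and 164.59, 171.91 and 159.45 TPM at 72 h. It rose by 2.19 on the log2 scale (SE 0.10, adjusted p = 1.9e-12), while GATA1 had 0 counts in all DMSO and 72 h libraries. EPOR, the erythropoietin receptor, rose from 2.04 ± 0.378 to 10.9 ± 0.967 TPM (2.42, SE 0.13, adjusted p = 3.1e-11) and MEIS1, a homeobox factor of stem cells and megakaryocytes, by 1.06 (adjusted p = 1.4e-07). JAK2, the kinase that EPOR signals through, fell by 1.11 (adjusted p = 4.3e-12), and CBFA2T3, a corepressor found in TAL1 complexes, fell by 1.06 (adjusted p = 1.7e-11). LMO2, at 81.1 ± 2.19 TPM in DMSO, and FLI1, at 161 ± 3.96 TPM, were read at far higher levels than TAL1. GFI1B, a repressor needed in both lineages, had at most 9 counts in a library. None of the 17 tested genes was called for the difference between responses by edgeR. With DESeq2 1 was called, beside 1340 more positive and 1231 more negative of all 15901 genes. At an adjusted p under 0.05, 5 passed, beside 45.0% of all genes.

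Of 8 further genes, 7 globins and the globin chaperone AHSP, HBA1, HBA2, HBE1, HBM, HBZ and AHSP had under 3 counts in every library. The 2 that were tested were HBD, the δ-globin of adult red cells, and HBQ1, a θ-globin of unknown role. HBD had 3.17, 3.73 and 3.58 TPM in DMSO and 1.25, 2.32 and 1.34 TPM at 72 h, and fell by 1.29 (SE 0.22, adjusted p = 5.7e-05), a call lost in 11 of 28 alternative analyses. In sgEPCR cells HBD had 1, 1 and 6 counts in DMSO and 92, 43 and 117 counts in UM171, a rise of 4.72 (SE 0.36, adjusted p = 1.5e-06), and the difference between responses was 5.24 (SE 0.45, adjusted p = 7.3e-06). It starts from a level near the floor in sgEPCR DMSO. Without the 2 libraries rich in mitochondrial counts, HBD in sgEPCR against control cells differed by -3.99 in DMSO (SE 0.36, adjusted p = 3.2e-07, edgeR). In UM171 that difference was 1.27 (SE 0.20, adjusted p = 6.5e-05). HBD resembles HBB, to which the same libraries gave at most 1 count. HBQ1 rose at 72 h from 1.38 ± 0.822 to 4.90 ± 0.272 TPM (1.73, SE 0.27, adjusted p = 1.6e-05).

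All 12 heme synthesis and iron import genes were tested, and 0 were called at 72 h by edgeR or DESeq2 (median 0.16 beside 0.02 over all genes). At an adjusted p under 0.05, 9 passed, a share near the 75.6% of all genes. ALAS1, the isoenzyme of ALAS2 that all cells use, had 66.0 ± 1.9 TPM in DMSO and 90.8 ± 4.8 at 72 h, while ALAS2 stayed at 0 counts. For the difference between responses 3 were called, all more negative in sgEPCR cells, beside 4.17% of all genes. ABCB10, a mitochondrial transporter that works with the iron importer SLC25A37, had -2.59 (SE 0.15, adjusted p = 6.7e-07), and UROS, a heme pathway enzyme, -1.17 (SE 0.13, adjusted p = 3.4e-05), a call lost in 14 of 25 alternatives. Of 24 genes of the red cell surface, membrane skeleton and enzymes, 14 were tested and 3 rose at 72 h, near the 15% of all genes. They were SPTB, the β-spectrin of the red cell skeleton (0.0733 ± 0.00577 to 3.57 ± 0.284 TPM, 5.52, SE 0.19, adjusted p = 6.9e-14), XK, a membrane protein that carries the Kx antigen (1.41), and BLVRB, a heme breakdown enzyme of many tissues (1.19). GYPB, EPB42, RHAG, RHD, CA1 and HEMGN had under 3 counts in every library. The difference between responses was called for TRIM58 (1.30, lost in 12 of 25 alternatives) and ERMAP (1.29, lost in 11 of 25), more positive in sgEPCR cells, and for XK (-1.99). Over all genes 3.60% were called more positive and 4.17% more negative.

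Of 11 regulators of globin switching 10 were tested, and 4 rose and 1 fell at 72 h, beside 15% and 5.80% of all genes (median 0.59 beside 0.02). LIN28B, an RNA-binding protein of the fetal program, rose from 8.75 ± 0.413 to 23.9 ± 1.67 TPM (1.41), and NFIA (1.33), KLF3 (1.28) and IGF2BP3 (1.24) also rose, whereas NFIX fell by 1.05. BCL11A, the repressor of γ-globin, had 19.25, 16.52 and 18.54 TPM in control DMSO and 27.65, 30.17 and 28.51 TPM after 24 h of UM171. In sgEPCR cells it had 25.73, 34.83 and 34.16 TPM in DMSO and 5.02, 4.49 and 4.29 TPM in UM171. The difference between responses was -4.05 (SE 0.28, adjusted p = 1.9e-06), while HBG1 and HBG2 together had at most 2 counts in any of these libraries. KLF2 (5.81, adjusted p = 1.9e-07) and NFIA (-3.81, adjusted p = 3.5e-05, lost in 12 of 25 alternatives, over which it ranged from -4.05 to -1.90) were the other leading differences. Of the 10 tested genes 5 were called, 1 more positive and 4 more negative, beside 3.60% and 4.17% of all genes.

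**Figure D5:**
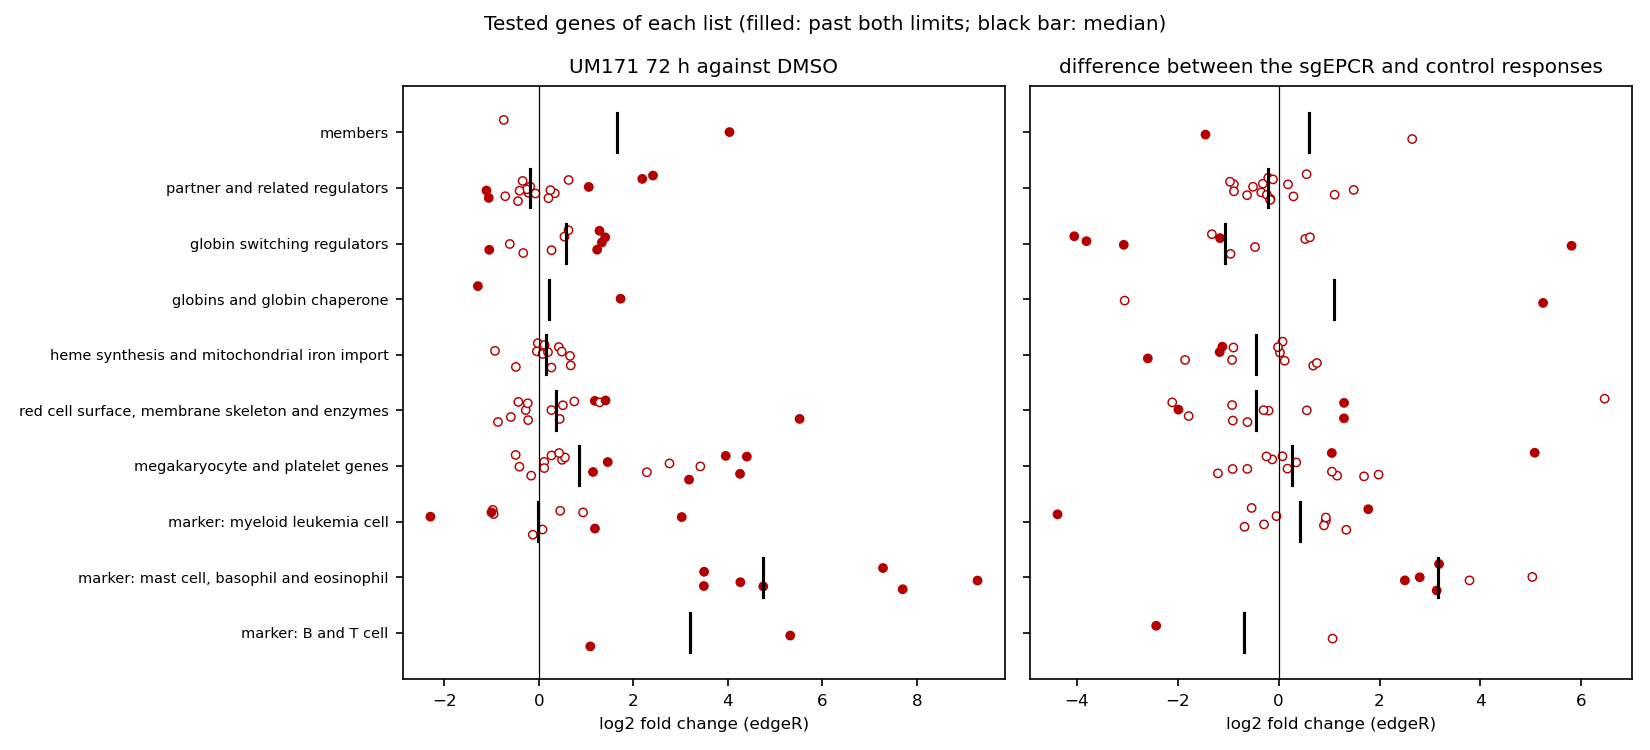
Log2 fold changes (x axes, edgeR) of the tested genes of each list (rows) at 72 h of UM171 against DMSO (left) and for the difference between the sgEPCR and control responses (right). Filled points passed both limits and black bars mark list medians, which at 72 h run from -0.18 for the partner regulators to 4.75 for the mast cell, basophil and eosinophil markers.

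Markers of other cell types also differed between the groups in which ITGA2B differed. Of 12 myeloid leukemia markers, 10 were tested, and the list summed to 1561 to 1654 TPM in DMSO and 2391 to 2587 TPM at 72 h. The median log2 fold change of the tested markers at 72 h was -0.02 beside 0.02 over all genes. ITGAM and LYZ were called higher and CD34 and SPI1 lower, beside 2486 and 962 of all 16575 tested genes. KIT had 0 counts in all 48 and 72 h libraries. It was also too low for the filter in the fit of DMSO and 24 h libraries without those rich in mitochondrial counts. A fall therefore cannot be read from these 0 counts. All 7 tested of 11 mast cell, basophil and eosinophil markers rose at 72 h, beside 2486 of all 16575 tested genes. Genes low in DMSO could pass the filter through the UM171 libraries alone. The list summed to 21.6 to 25.3 TPM in DMSO and 434 to 487 TPM at 72 h. It summed to 8.35 to 14.3 TPM in sgEPCR DMSO and 68.8 to 109 TPM in sgEPCR UM171. Among them HDC, which makes histamine, rose by 9.28 and CPA3, a protease of mast cell granules, by 7.70, while CLC had under 3 counts in every library. Of 6 B and T cell markers 2 were tested, CD3D and CD79A, and both rose, while MS4A1 and CD3G had under 3 counts in every library. The part of these cell types in the results for ITGA2B was not tested.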

How the data were processed

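Poly(A) RNA of OCI-AML5 cells was sequenced in 21 libraries. Per the labels, the authors trimmed reads with Trimmomatic 0.35, aligned them to GRCh38 with STAR 2.5.1b and deposited the expected counts and TPM values per gene from RSEM 1.2.28, with base calls by CASAVA 1.8.2. The methods of the study name another quantification tool, whose output was not used here. RSEM shares reads among similar genes, so expected counts need not be whole, and TPM depends on the rest of the library, mitochondrial RNA included.

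Expected counts as deposited by the authors were rounded. Of 58219 entries per library, 45 Y-chromosome copies of shared X and Y regions were left out. Library totals were 24286668 to 51540166 counts, with a median of 33888914, which sets the counting precision. Symbols and positions came from GENCODE, and 57392 of 58174 identifiers matched. Promoters were RefSeq windows of 300 bases, held for 5 of 9 members.

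Genes that passed filterByExpr were tested at the fold and adjusted p limits of the study with edgeR 4.0.16 (R 4.3.3; TMM, quasi-likelihood, Benjamini-Hochberg) in the 15 control libraries (16575 genes) and in the 12 libraries at 24 h and in DMSO (15901 genes). SEs were derived from each log2 fold change and its F statistic, as the change over the root of F. Genes under the filter were compared by exact permutation (scipy 1.17.1). The procedure was tested on simulated data. The alternatives comprised limma 3.58.1 on TPM with a pseudocount of 1 or 0.1 before log2, DESeq2 1.42.0, other scalings, filters and limits, other sets of libraries, a replicate block, summed HBG1 and HBG2, and each library left out. Refitting the gene lists without the 2 libraries rich in mitochondrial counts was added after seeing the data.

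The 9 members and the gene lists were chosen with earlier results of these data known. From each list the text names up to 4 rises and 3 falls at 72 h and up to 2 differences between responses in each direction, by size, with genes under 3 counts throughout, the 3 genes most like each tested member (log2 CPM above 2), and PROCR. LMO2, FLI1, ALAS1, ITGB1, MMRN1, KIT and GFI1B were named outside this rule, after their values were seen. Some list genes are not reported here by name. Replicate libraries differed by more than counting noise (lowest chi-square per gene 1.65), so none was counted as a duplicate.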

Additional observations from a re-analysis of the deposited data

Results flagged for a closer look

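The response to 24 h of UM171 differed between sgEPCR and control cells in a test of the difference itself (edgeR, limits of a 2-fold difference and an adjusted p of 0.0001, or, for ITGA2B, under DESeq2 or without the libraries rich in mitochondrial counts). Values are log2 differences, positive where the sgEPCR response was the more positive. Among the 9 genes they were -1.45 for TAL1 and 2.65 for ITGA2B. Among genes of globin and its switching they were 5.24 for HBD, 5.81 for KLF2, -4.05 for BCL11A, -3.81 for NFIA and -3.07 for LIN28B. Among heme and red cell genes they were -2.59 for ABCB10, -1.17 for UROS, -1.99 for XK, 1.3 for TRIM58 and 1.29 for ERMAP. Among platelet genes they were 5.08 for THBS1 and 1.05 for BIN2. Among markers of other blood cells they were -4.38 for MPO, 1.78 for CSF2RA, 2.5 for ENPP3, 3.13 for PRG2, 3.18 for TPSB2 and -2.43 for CD79A. The call was lost in 17 of 24 alternatives for ENPP3, 15 of 24 for TPSB2, 14 of 25 for UROS, 13 of 25 for BIN2, 12 of 25 for TRIM58 and for NFIA and 11 of 25 for ERMAP. The control DMSO libraries were collected at 72 h and the sgEPCR ones at 24 h, so genotype and time in culture cannot be told apart in these differences.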

How the results depend on the processing

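Of 1801 alternative values of single genes, 0 reversed, 1583 kept their side of the limits, 206 lost the call and 12 gained it. For the lists, 317 of 392 alternative counts were within 1.5 times the reported one and 75 were not. The number of the 9 genes called depended on the limits and the test, as did the number over all genes, and the cause was not tested. At an adjusted p under 0.05 the steps passed between 3918 genes higher and 3651 lower (24 to 48 h) and 6041 and 5544 (24 to 72 h), of 16575. The shares of all genes for the other comparisons at that limit are given above. At an adjusted p under 0.05 with no minimum fold, 2 were called at 6 h (0 reported), 2 at 24 h, 2 at 48 h and 2 at 72 h (1 reported at each), 2 for the difference between responses (1 reported), 1 between genotypes in DMSO (0 reported), 2 between genotypes in UM171 (1 reported), and 11 of 12 steps between times (6 reported). With limma on log2(TPM + 1) or log2(TPM + 0.1), 0 were called at 24 h, 0 in sgEPCR cells (2 reported), 0 for the difference between responses and 0 between genotypes in UM171. Over all genes, log2(TPM + 1) gave 897 higher and 365 lower of 16575 at 24 h. Of 15901 genes it gave 258 and 12 in sgEPCR cells, 28 and 1 for the difference, and 44 and 14 between genotypes in UM171. The numbers for log2(TPM + 0.1) were 1301 and 562, 294 and 12, 8 and 0, and 15 and 6. With all 21 libraries in one fit 0 were called at 24 h, beside 1318 higher and 556 lower of all 16786 genes. With total count scaling 0 were called in sgEPCR cells and 0 for the difference. Of all 15901 genes 978 were called higher and 146 lower in sgEPCR cells, and 269 more positive and 155 more negative for the difference. With at least 10 counts in every library 1 was called in sgEPCR cells, since ITGA2B had 4 counts in the first sgEPCR DMSO library and was not tested. DESeq2 called 2 for the difference between responses. Without the 2 libraries rich in mitochondrial counts, 2 were called for the difference and 2 between genotypes in UM171. Leaving out 1 library at a time gave 1 to 2 called in sgEPCR cells, 1 to 2 for the difference, 1 to 1 between genotypes in UM171, 1 to 1 at 24, 48 and 72 h, and 0 to 0 at 6 h and between genotypes in DMSO. Replicate numbers did not pair the libraries of the time course, where deviations of same-numbered libraries correlated between -0.083 and 0.078 over 30 pairs. In sgEPCR cells the correlations were -0.609, -0.604 and 0.448. There the 2 libraries rich in mitochondrial counts carry different numbers, so these correlations cannot show whether sgEPCR libraries were paired. With the replicate block 0 were called in sgEPCR cells (TAL1 -1.64, adjusted p = 0.00021; ITGA2B 3.81, adjusted p = 0.0032), 0 for the difference and 0 between genotypes in UM171, and it changed no other count of the 9 genes between groups. Under the block, of 15901 genes 102 were called higher and 12 lower in sgEPCR cells, and 0 were called between genotypes in UM171. For the difference 0 of them were called, so all 19 named differences that had passed the limits lost their call. Total count scaling moved the median of all genes to 0.20 at 6 h, 0.16 in sgEPCR cells, 0.12 for the difference, -0.25 between genotypes in DMSO and -0.13 in UM171, and TAL1 and ITGA2B kept their directions. Depth limits the 7 low genes to the floors given above.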
